A study of Mus musculus with 9 samples.

Results

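In E14 mouse ES cells, 62 genes had more mRNA after 3 h without threonine (Thr) and less mRNA after 3 h without cysteine (Cys) than in complete medium. The 62 were selected on the deposited normalized counts, which are read counts divided by a size factor per library. A gene was kept when its mean over the 9 libraries was at least 200, when log2 of the Thr-starved mean over the unstarved mean was at least 0.7, when the same log2 for the Cys-starved mean was -0.2 or lower, and when no Thr-starved or Cys-starved library overlapped the unstarved libraries. Of the 20189 genes measured, 11527 reached the mean of 200, and 67 of them (0.581%) met every threshold. Mdm2, Plk2, Cdkn1a, Socs3 and Ctsl were among the 67 and were set aside by name, as was Mcoln1, whose Cys-starved libraries reached into the unstarved range. Because Thr and Cys values chose the genes, these values are given as a description and carry no test.

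The cells were wild-type E14, a line of pluripotent mouse ES cells held in leukemia inhibitory factor (LIF) on gelatin. Each library of poly(A) RNA came from cells in medium with all amino acids (unstarved, n = 3) or from cells starved for 3 h of Thr (n = 3) or of Cys (n = 3). The labels name dialyzed serum and LIF in the starvation medium, but describe it for Arg and Leu, and the time the unstarved cells spent in it is not given in the sources used here. Total counts ran from 48763102 to 74962733 per library. The labels do not say that replicates were separate cultures, so spread and p-values measure only the differences between these libraries.

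Mouse ES cells break down Thr through threonine dehydrogenase to feed folate-linked carbon metabolism and nucleotide synthesis, whereas Cys supplies glutathione, the main thiol buffer against oxidation. The transcription factor p53 raises genes of cell cycle arrest, DNA repair and apoptosis when DNA or nucleotide supply is disturbed, LIF acts through STAT3 to keep ES cells undifferentiated, and TFEB and TFE3 switch on lysosomal genes when amino acids are short. Genes of the p53 response, Junb, which LIF induces, and the lysosomal gene Lamp2 were among the 62, next to chromatin factors, vitamin carriers, ubiquitin ligases and splicing factors.

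**Figure D1:**
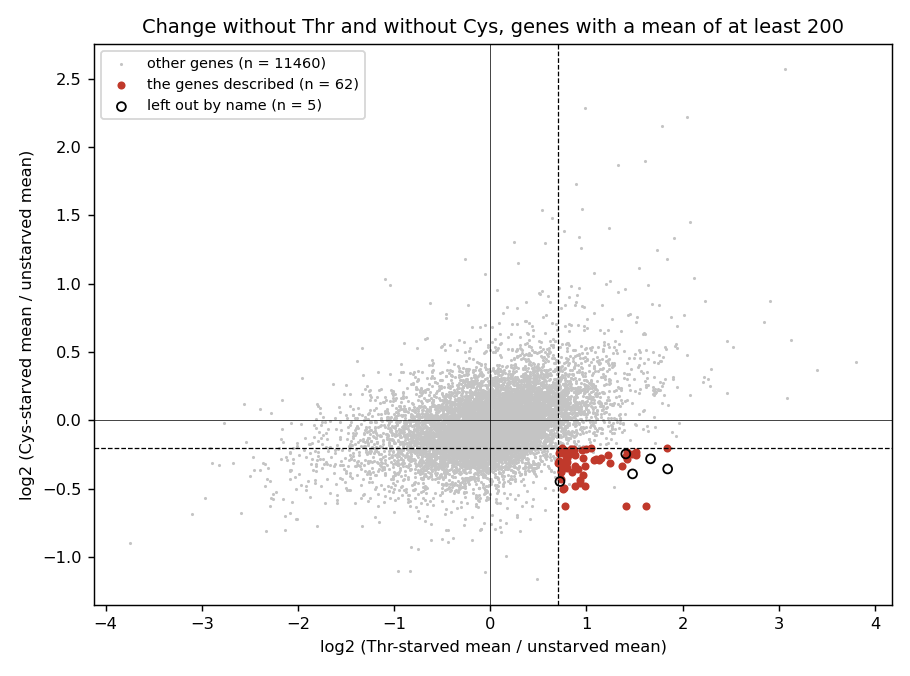
Each point is 1 of 11527 genes with a mean normalized count of at least 200. The x axis is log2 of the Thr-starved mean over the unstarved mean, the y axis the same for Cys starvation, and dashed lines mark 0.7 and -0.2. The 62 genes (red) sit in the lower right, where log2 runs from 0.70 to 1.84 without Thr and from -0.63 to -0.20 without Cys; open circles are 5 genes set aside by name.

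How many genes meet the rule depends on its limits on size. Of 1016 genes with a Thr log2 of at least 0.7 and no overlap, 67 (6.59%) were also lower without Cys by the rule, and these 67 were 3% of the 2234 genes lower without Cys by the rule. Without the limits on size, 1375 of the 11527 genes (11.9%) had all Thr-starved libraries above and all Cys-starved libraries below the unstarved ones. Both comparisons use the same 3 unstarved libraries, so an unstarved value that is high or low moves both.

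The thresholds cut through a continuous range. Relch and H1f0 were just inside the Thr threshold with log2 of 0.702 and 0.713, and Ak1 and Khdc4 just outside it with 0.688 and 0.686. At the Cys threshold Zfp750 and Mybl1 were inside, both at -0.202, and Mgea5 and Dusp4 outside at -0.189 and -0.188. A2m and Gm16973 had the lowest means kept, 215.5 and 244, and a gene without a symbol (ENSMUSG00000118537) and Rerg just missed with 197.8 and 192.9.

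The Cys threshold also leans on how libraries were scaled. With TMM factors in place of the deposited size factors, Cys-starved values moved up by about 0.04 on the log2 scale relative to unstarved ones, and 38 of the 62 genes met the thresholds. A shift of this size is too small to turn the direction of any of the 62, and Cys-starved libraries overlapped the unstarved ones for 4 genes (Ahr, A2m, Tnip2 and 2900011O08Rik). The 24 genes that missed under TMM were these 4 with Zfp750, Zic5, Fgfr2, Mybl1, Selenot, Btg2, Rlim, Khdc3, Fabp3, Zdhhc15, Lamp2, Asb6, Rbm39, Btbd1, Zdhhc17, Bcor, Lims1, Rev1, Traf4 and Tead1.

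The selection asked for a larger difference without Thr (0.7) than without Cys (-0.2), so the sizes of the differences are not compared. Over the 62 genes the median log2 was 0.854 without Thr and -0.279 without Cys, against 0.0124 and -0.0576 over all 11527 genes. The 3 Thr-starved libraries had medians of 0.857, 0.849 and 0.861 over the 62 genes relative to the unstarved mean, and the 3 Cys-starved libraries had -0.272, -0.281 and -0.295. The median coefficient of variation within a group was 2.62% to 3.68% for the 62 genes and 2.89% to 3.23% for the 11527. In bulk RNA, fewer cells that make an mRNA and less of it per cell cannot be told apart.

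**Figure D2:**
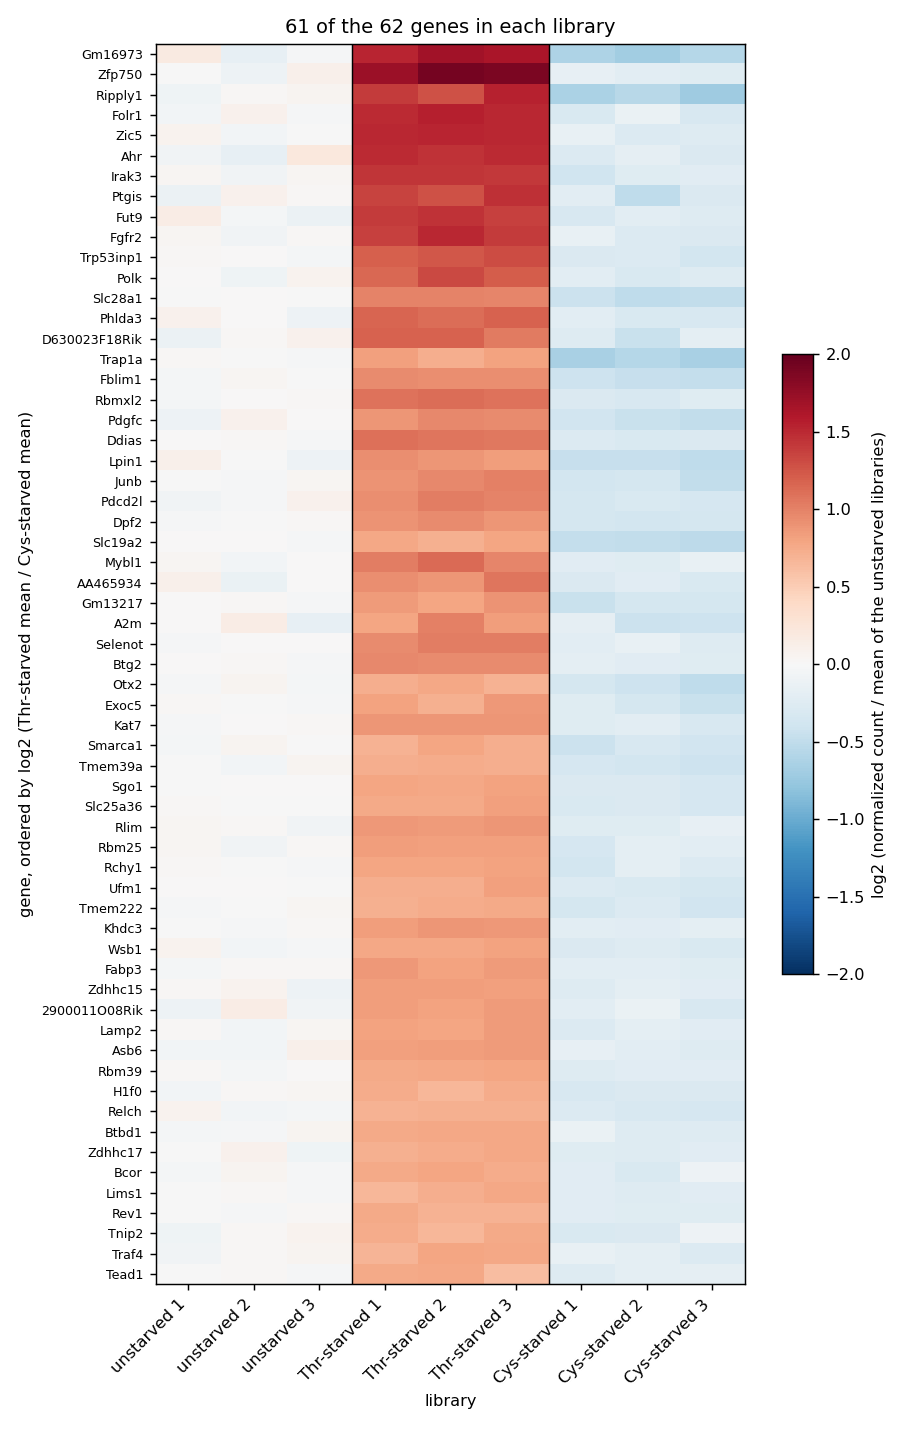
Rows are 61 of the 62 genes, ordered by log2 of the Thr-starved mean over the Cys-starved mean, and columns are the 9 libraries. Colour is log2 of a library's normalized count over the mean of the unstarved libraries, from blue (lower) to red (higher), and Thr-starved libraries run from 0.617 (Tead1, replicate 3) to 1.92 (Zfp750, replicate 2).

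Of the 62 genes, 7 act in the p53 response or in DNA repair, with a median log2 of 1.07 without Thr and -0.28 without Cys. Trp53inp1 (chr4:11156431-11174379, plus strand), a p53 target that promotes p53 activity and autophagy, was counted at 5225, 5154 and 4984 in the unstarved libraries, at 11720, 12054 and 12613 without Thr and at 4188, 4237 and 3955 without Cys. Polk (chr13:96480690-96542579, minus strand), a translesion DNA polymerase, stood at 550, 513 and 575 in complete medium, against 1209, 1368 and 1262 after Thr starvation and 471, 443 and 458 after Cys starvation. Both had Thr-starved libraries more than 2-fold over the unstarved mean, and log2 was 1.24 without Thr and -0.31 without Cys for Trp53inp1 and 1.23 without Thr and -0.26 without Cys for Polk. Phlda3 (chr1:135766119-135769136, plus strand), a p53 target that restrains AKT, had normalized counts of 1939, 1843 and 1712 (unstarved), 4114, 3959 and 4161 (Thr-starved) and 1580, 1487 and 1467 (Cys-starved), with log2 of 1.15 without Thr and -0.28 without Cys. Btg2 (chr1:134075170-134079120, minus strand), an antiproliferative gene that both p53 and growth signals induce, was counted at 1401, 1418 and 1381 in the unstarved libraries, at 2729, 2694 and 2705 without Thr and at 1228, 1196 and 1188 without Cys. Its Thr-starved libraries were nearly level with each other, and log2 was 0.95 without Thr and -0.22 without Cys. Ddias, which protects cells from apoptosis after DNA damage, had log2 of 1.07 without Thr and -0.29 without Cys, Rchy1, a ubiquitin ligase that acts on p53, 0.79 without Thr and -0.28 without Cys, and Rev1, a translesion polymerase that works beside Polk, 0.72 without Thr and -0.24 without Cys. Part of the Rchy1 and Rev1 exons lie opposite another gene of the tables (18% with Thap6 and 26.6% with Eif5b), whose log2 without Thr was 0.02 and -0.07.
Btg2 is shown with the 300 bases around a RefSeq start (chr1:134079106-134079405, minus strand, GRCm38.p6), from 250 before to 50 after it, with a CRE, the box of CREB and ATF factors, in capitals from position -166.
Btg2: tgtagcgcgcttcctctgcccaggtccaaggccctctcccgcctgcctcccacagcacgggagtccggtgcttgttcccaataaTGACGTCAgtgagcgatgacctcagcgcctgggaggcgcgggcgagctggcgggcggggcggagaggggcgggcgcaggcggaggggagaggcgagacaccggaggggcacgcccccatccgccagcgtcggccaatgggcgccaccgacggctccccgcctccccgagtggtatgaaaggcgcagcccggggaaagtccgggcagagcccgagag

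Transcription factors and chromatin proteins made up 13 genes. Zfp750 (chr11:121510978-121519333, minus strand), a zinc finger regulator of epidermal differentiation, was counted at 158, 149 and 170 in the unstarved libraries, at 524, 603 and 586 without Thr and at 142, 138 and 135 without Cys. It had the highest Thr log2 of the 62, 1.84 or 3.58-fold, while its Cys log2 of -0.20 was, with that of Mybl1, the nearest to the threshold. Zic5 (chr14:122456795-122465677, minus strand), a ZIC family factor of early neural development, stood at 1070, 990 and 1014 in complete medium, against 2918, 2932 and 2922 after Thr starvation and 921, 846 and 856 after Cys starvation. Its Thr-starved libraries had an SD of 7.27 normalized counts (n = 3) at a fold of 2.85. Ahr (chr12:35497974-35535038, minus strand), the aryl hydrocarbon receptor, had normalized counts of 168, 158 and 203 (unstarved), 497, 477 and 496 (Thr-starved) and 146, 156 and 144 (Cys-starved). Ripply1 (chrX:139779549-139782353, minus strand), a corepressor that shuts off T-box factors in somites, was counted at 189, 204 and 207 in the unstarved libraries, at 527, 487 and 582 without Thr and at 130, 136 and 122 without Cys. Ripply1 was the gene with the lowest Cys log2, -0.63 (35.3% lower), and had 1.41 without Thr.

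Junb (chr8:84974484-84978718, minus strand), an AP-1 subunit and immediate early gene that LIF and STAT3 also induce, stood at 2109, 2083 and 2169 in complete medium, against 3956, 4137 and 4279 after Thr starvation and 1643, 1670 and 1515 after Cys starvation. Its log2 values were 0.96 without Thr and -0.40 without Cys. The 300 bases around its RefSeq start (chr8:84978699-84978998, minus strand, GRCm38.p6) hold a TATA box, shown in capitals, which begins at that RefSeq start. The gene start in the coordinates above, 84978718 on the minus strand, lies downstream of the box.
Junb: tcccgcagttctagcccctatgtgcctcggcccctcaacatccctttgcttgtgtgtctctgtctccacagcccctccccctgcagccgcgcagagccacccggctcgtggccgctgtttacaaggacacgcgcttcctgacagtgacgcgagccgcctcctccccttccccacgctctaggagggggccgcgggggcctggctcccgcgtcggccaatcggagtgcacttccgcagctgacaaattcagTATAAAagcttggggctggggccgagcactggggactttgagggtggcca

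Otx2, a homeodomain factor of the exit from the naive state, had log2 of 0.73 without Thr and -0.43 without Cys and Mybl1, a MYB factor, 1.05 without Thr and -0.20 without Cys. Tead1, the DNA-binding partner of YAP, was at 0.72 without Thr and -0.21 without Cys. Among chromatin proteins Kat7 (chr11:95274259-95310246, minus strand), a histone H3 and H4 acetyltransferase and 1 of the 5 genes with the highest means, was counted at 7744, 7897 and 8039 in the unstarved libraries, at 14591, 14555 and 14517 without Thr and at 6664, 6838 and 6351 without Cys, which gives log2 of 0.88 without Thr and -0.25 without Cys. Dpf2, a subunit of BAF remodelling complexes, had log2 of 0.91 without Thr and -0.35 without Cys, Smarca1, an ISWI ATPase, 0.74 without Thr and -0.38 without Cys, Bcor, the BCL6 corepressor and subunit of a Polycomb complex, 0.76 without Thr and -0.21 without Cys, and the linker histone gene H1f0 0.71 without Thr and -0.30 without Cys.

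Receptors and signalling proteins numbered 5. Fgfr2 (chr7:130162451-133123350, minus strand), an FGF receptor tyrosine kinase, stood at 541, 504 and 536 in complete medium, against 1359, 1491 and 1386 after Thr starvation and 477, 438 and 432 after Cys starvation, with log2 of 1.42 without Thr and -0.23 without Cys. Its annotated span reaches Ctbp2 on the same strand, with which it shares 3.04% of its exonic bases, and Ctbp2 had log2 of 0.04 and -0.01. Irak3 (chr10:120141648-120202130, minus strand), a brake on Toll-like receptor signalling, was counted at 214, 198 and 214 in the unstarved libraries, at 560, 562 and 556 without Thr and at 159, 177 and 179 without Cys. The Thr-starved libraries of Irak3 had an SD of 2.72 normalized counts (n = 3), and log2 was 1.42 without Thr and -0.28 without Cys. Pdgfc, a PDGF ligand, had log2 of 0.93 without Thr and -0.44 without Cys, Traf4, a TRAF adaptor, 0.75 without Thr and -0.20 without Cys, and Tnip2, which restrains NF-kB with A20, 0.72 without Thr and -0.23 without Cys.

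**Figure D3:**
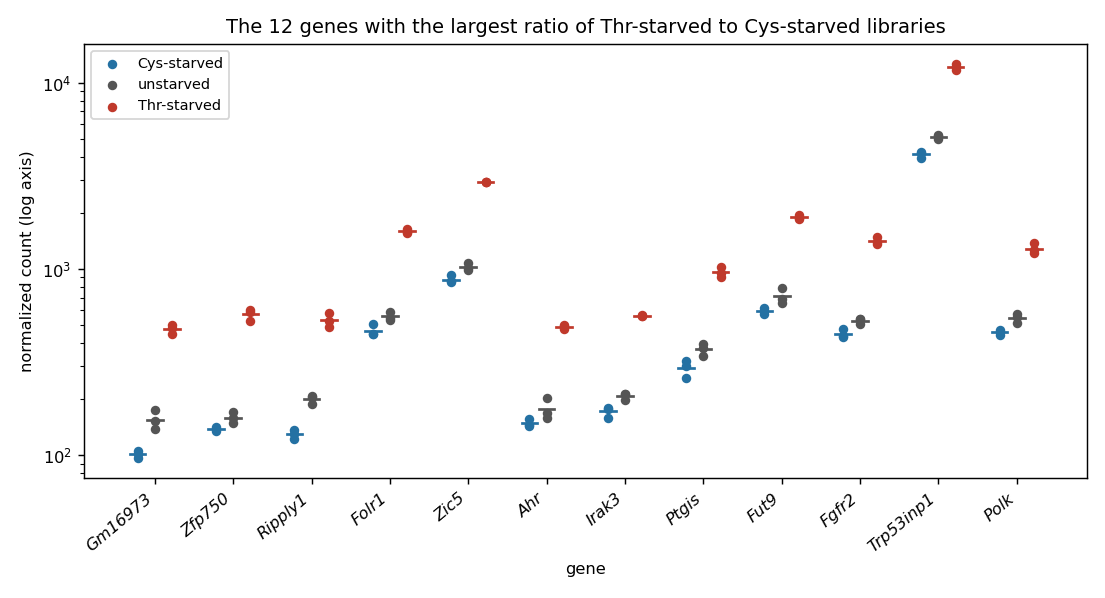
Points are the normalized counts of single libraries, on a log axis, for the 12 genes with the largest ratio of the Thr-starved to the Cys-starved mean, and short lines are group means (n = 3). In all 12 the red Thr-starved points lie above and the blue Cys-starved points below the grey unstarved ones, as the selection required, from Gm16973 at 96 without Cys to Trp53inp1 at 12613 without Thr.

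Carriers of vitamins and nucleosides and proteins of lipid handling, grouped with the protease inhibitor A2m and the selenoprotein Selenot, made up 9 genes. Folr1 (chr7:101858331-101870788, minus strand), the folate receptor alpha, had normalized counts of 534, 590 and 547 (unstarved), 1564, 1633 and 1579 (Thr-starved) and 448, 507 and 445 (Cys-starved). That is 2.86-fold more without Thr and 16.2% less without Cys. Slc19a2 (chr1:164249046-164265385, plus strand), the thiamine transporter, stood at 2577, 2590 and 2539 in complete medium, against 4378, 4214 and 4449 after Thr starvation and 1839, 1817 and 1781 after Cys starvation, and was 29.4% lower without Cys, at log2 of -0.50. Slc28a1, which takes up pyrimidine nucleosides, had log2 of 0.99 without Thr and -0.48 without Cys, and the mitochondrial pyrimidine nucleotide carrier Slc25a36 0.78 without Thr and -0.32 without Cys. Ptgis (chr2:167191805-167240604, minus strand), prostacyclin synthase, was counted at 340, 395 and 377 in the unstarved libraries, at 949, 900 and 1019 without Thr and at 319, 261 and 302 without Cys. Its log2 was 1.37 without Thr and -0.33 without Cys. Lpin1, a phosphatidate phosphatase, had log2 of 0.88 without Thr and -0.48 without Cys, Fabp3, a fatty acid binding protein, 0.84 without Thr and -0.23 without Cys, Selenot, an endoplasmic reticulum selenoprotein, 1.00 without Thr and -0.21 without Cys, and A2m, a protease inhibitor with the lowest level of the 62 per kb of exon (30.7), 0.88 without Thr and -0.33 without Cys.

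Among genes of ubiquitin-like proteins and of ubiquitin ligases, Ufm1, a ubiquitin-like modifier, had log2 of 0.76 without Thr and -0.31 without Cys. Rlim, the X-linked ubiquitin ligase that acts in X inactivation, had 0.87 without Thr and -0.21 without Cys, Wsb1 0.78 without Thr and -0.28 without Cys, Asb6 0.83 without Thr and -0.21 without Cys and Btbd1 0.77 without Thr and -0.22 without Cys, the last 3 being SOCS-box or BTB proteins that recruit substrates to cullin ligases. RNA-binding proteins, grouped with Pdcd2l, which acts in assembly of the small ribosomal subunit, came to 5. Rbm39 (chr2:156147239-156180238, minus strand), a splicing factor, stood at 14355, 13809 and 14253 in complete medium, against 24011, 24116 and 24490 after Thr starvation and 11851, 12098 and 12028 after Cys starvation, and Rbm25 (chr12:83631236-83683123, plus strand), which also acts in splice site choice, had normalized counts of 11477, 10703 and 11387 (unstarved), 20001, 19785 and 19783 (Thr-starved) and 8890, 9718 and 9711 (Cys-starved). Both were among the 5 genes with the highest means and had log2 of 0.78 without Thr and -0.24 without Cys for Rbm39 and 0.83 without Thr and -0.25 without Cys for Rbm25. Rbmxl2, an intronless germ-cell paralog of Rbmx, had log2 of 1.10 without Thr and -0.28 without Cys, Pdcd2l 0.98 without Thr and -0.34 without Cys, and Khdc3, a KH-domain protein of oocytes and ES cells, 0.86 without Thr and -0.21 without Cys. Khdc3 shares 38.5% of its exonic bases with Gm20509 on the same strand, a gene without a row in the counts.

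Of 8 genes of membranes and trafficking, Fut9 (chr4:25609332-25800244, minus strand), the fucosyltransferase that makes the stem cell antigen SSEA-1, stood at 788, 693 and 656 in complete medium, against 1884, 1942 and 1846 after Thr starvation and 572, 613 and 596 after Cys starvation. Its log2 was 1.41 without Thr and -0.26 without Cys. Lamp2 (chrX:38401357-38456454, minus strand), a lysosomal membrane protein needed for autophagy, was counted at 1128, 1071 and 1141 in the unstarved libraries, at 1936, 1918 and 2017 without Thr and at 923, 972 and 951 without Cys, with log2 of 0.81 without Thr and -0.23 without Cys. Relch, which moves cholesterol from recycling endosomes, had 0.70 without Thr and -0.31 without Cys, Exoc5, an exocyst subunit, 0.80 without Thr and -0.35 without Cys, Tmem39a, an endoplasmic reticulum protein, 0.73 without Thr and -0.37 without Cys, and Tmem222 0.73 without Thr and -0.33 without Cys. The palmitoyltransferases Zdhhc15 and Zdhhc17 had 0.83 without Thr and -0.23 without Cys and 0.74 without Thr and -0.24 without Cys. Fblim1 (chr4:141576062-141606096, minus strand), which links filamin to integrin adhesions, had normalized counts of 12288, 12981 and 12485 (unstarved), 24238, 23986 and 23920 (Thr-starved) and 9405, 9113 and 9045 (Cys-starved). It was 27% lower without Cys and 1.91-fold higher without Thr. Lims1 (PINCH-1), another protein of integrin adhesions, had log2 of 0.72 without Thr and -0.23 without Cys. Trap1a (chrX:139333683-139338169, plus strand), which encodes the tumour rejection antigen P1A, was counted at 3896, 3821 and 3793 in the unstarved libraries, at 6771, 6334 and 6674 without Thr and at 2447, 2586 and 2441 without Cys. Trap1a was 35.1% lower without Cys and had the highest level of the 62 per kb of exon, 3656. Sgo1, the guardian of centromeric cohesion, had log2 of 0.79 without Thr and -0.31 without Cys.

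Of the 62 genes, 59 are annotated as protein coding. The lincRNA Gm16973 (chr14:56696280-56701268, minus strand) was counted at 175, 139 and 152 in the unstarved libraries, at 449, 499 and 480 without Thr and at 102, 96 and 105 without Cys. It had the largest ratio of Thr-starved to Cys-starved libraries, 2.24 on the log2 scale, and 15.9% of its exonic bases lie opposite Mphosph8, whose own log2 was 0.33 and -0.01. The transcript AA465934 had log2 of 0.96 without Thr and -0.27 without Cys and the pseudogene Gm13217 0.85 without Thr and -0.38 without Cys, and 96.1% of the Gm13217 transcript matches Slc25a36 at 95% identity or more, so these 2 genes may share reads and count as 1. D630023F18Rik had log2 of 1.13 without Thr and -0.29 without Cys and 2900011O08Rik 0.84 without Thr and -0.22 without Cys. Of the exonic bases of D630023F18Rik, 14.4% are shared with Gm28845 on the same strand, which has no row in the counts. Over 10% of the transcript matched another gene for 10 of the 62, genes overlapping on the other strand included. The copies Gm14121 of Btbd1, Fabp3-ps1 of Fabp3 and Gm12241 of Zic5 had log2 of 0.69, 0.87 and 1.37 without Thr and -0.28, -0.15 and -0.27 without Cys.

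By features that the rule did not use, the 62 were described by length, GC content and position. The median transcript was 3228 bases long with a GC content of 47.2%, against 3135 bases and 49.4% over all genes with a mean of at least 200, and the median number of exons was 7 in both. The X chromosome held 7 of the 62 (11.3%; Rlim, Bcor, Smarca1, Lamp2, Zdhhc15, Ripply1 and Trap1a) against 421 of 11527 genes (3.65%). The X share was 4.82% of the 1016 genes higher without Thr and 4.16% of the 2234 lower without Cys. Chromosome 7 held 8 of the 62 (12.9%) against 7.32% of all, and chromosome 1 held 7 (11.3%) against 5.8%, while chromosomes 6, 8 and 17 held 1 gene each (1.61%) against 4.58%, 5.47% and 4.96%. The 4 closest pairs of neighbours were Otx2 and Exoc5, 330271 bases apart on chromosome 14, Ripply1 and Trap1a (441380) and Rlim and Zdhhc15 (555685) on the X, and Slc28a1 and Btbd1 (621658) on chromosome 7. These shares are given with no test.

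**Figure D4:**
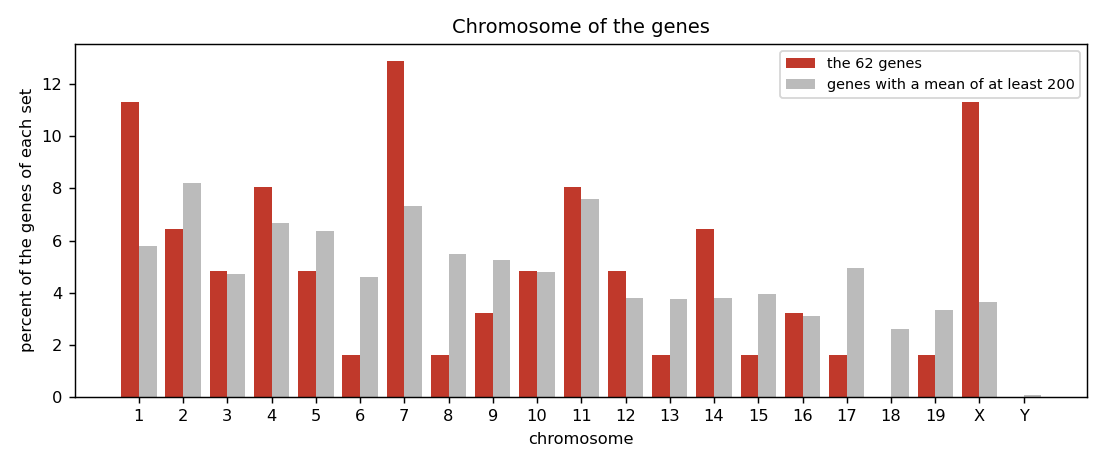
Bars give the percent of genes on each chromosome, in red for the 62 genes and in grey for the 11527 genes with a mean of at least 200. Chromosomes 1, 7 and X hold larger shares of the 62 genes (11.3%, 12.9% and 11.3%) than of all (5.8%, 7.32% and 3.65%), and chromosomes 6, 8 and 17 smaller shares (1.61% each against 4.58%, 5.47% and 4.96%).

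RefSeq promoter windows on GRCm38.p6, 250 bases before to 50 after a start, were matched by symbol for 49 of the 62 genes, with 63 windows. Motifs were searched on both strands as letters, with N for any base. A STAT-type palindrome, TTCNNNGAA, was found in 9 windows (14.3%) of 8 genes, against 6.44% of the 10128 windows of other genes with a mean of at least 200 and 8.3% of all 32851 windows. In the 150 bases nearest the start the share was 6.35%, against 3.1%. The stretches of 30 bases around the palindrome, which is in capitals, are shown because LIF acts through STAT3 in these cells.
Polk: gctgcgctgcaTTCTGGGAAggctggcgct
Otx2: ggtagatgggcTTCTTGGAAgaaggggaaa
Bcor: tccaaactcacTTCGGAGAAagggaaagag
Rlim: ggttcccacaaTTCTCAGAAcgcgaatttc
Ripply1: agtgctgaaggTTCTGAGAActggaagagc
Tnip2: ggcgggaaacgTTCCGGGAAggctggtttt
Selenot: gtcagctctccTTCCCAGAAcgggcgcagg
Slc25a36: ccccacggcccTTCATTGAAgagccccctg
They come from Polk at chr13:96542541-96542570 (minus), Otx2 at chr14:48665204-48665233 (minus), Bcor at chrX:12160441-12160470 (minus), Rlim at chrX:103981500-103981529 (minus), Ripply1 at chrX:139782334-139782363 (minus), Tnip2 at chr5:34513956-34513985 (minus), Selenot at chr3:58576570-58576599 (plus), Slc25a36 at chr9:97111235-97111264 (minus), with the strand in brackets. The p53 response gene Polk, the naive-state exit gene Otx2 and X-linked Bcor, Rlim and Ripply1 are among them. Junb, the 1 gene of the 62 in the list of LIF and STAT3 genes used below, is not among them.

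An E-box, CACGTG, was found in 11 windows (17.5%) of the 62 genes, against 10.7% of the windows of other expressed genes and 7.15% of all. In the 150 bases nearest the start the E-box share was 7.94%, against 6.83% of other expressed genes. Its extended form TCACGTGA, which TFEB and TFE3 bind and which overlaps the E-box, was in 3 windows (4.76%), against 2.06% and 0.974%.
Slc25a36: cccctgggcgaTCACGTGAaagaggcgtgc
AA465934: ccttatagttgTCACGTGAagctctggctg
Sgo1: gggccggagtgTCACGTGAtggtgtccggc
These stretches lie in Slc25a36 at chr9:97111211-97111240 (minus), AA465934 at chr11:83291632-83291661 (plus), Sgo1 at chr17:53689317-53689346 (minus). The GC box GGGCGG was in 41.3% of the 63 windows, against 65.6% and 35.7%, with a median GC content of the windows of 58.7%, 61.3% and 52.7%. AP-1 (TGANTCA) was in 7.94% of windows against 4.37% and 7.81%, CRE (TGACGTCA) in 6.35% against 3.31% and 1.79%, and the bare CCAAT box in 42.9% against 38.5% and 37.4%. The TATA box (TATAAA), found in Junb, was in 11.1% of windows, against 6.37% and 13.6%. ARE (TGACNNNGC), CARE (TGATGNAA) and the SRF CArG box were in 12.7%, 3.17% and 1.59%, against 14.2%, 2.07% and 1.23% of other expressed genes. In the 150 bases nearest the start AP-1 was in 4 windows (6.35%) against 1.93% of other expressed genes, and CARE in 2 (3.17%) against 0.829%. There CRE was in 3.17% against 2.63%, CCAAT in 27% against 26.2% and the TATA box in 4.76% against 2.69%. ARE was in 7.94% against 8.67% and the GC box in 34.9% against 55%. The extended E-box was in 3.17% against 1.56% and the SRF CArG box in 1.59% against 0.602%. No window of the 62 held an unspaced pair of p53 sites, which 0.00987% of other windows held. A match of letters is not evidence of binding, and a window without one says nothing of the factor.

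The pathways around these genes were read from 9 lists, which were drawn up with earlier results of these data known and are no independent evidence of a direction. All list genes that do not meet the thresholds were tested with edgeR, in 1 fit of the 9 libraries with adjustment over 20143 genes. Of all genes tested, 31.1% were called higher and 31.9% lower without Thr, 17.5% higher and 18.8% lower without Cys, and 4.25% (856) higher without Thr and lower without Cys. Of 242 list genes tested, 29 (12%) were called in these opposite directions. List genes are mostly well expressed, and above a mean of 200 the share was 14.1% (29 of 205 list genes) against 7.28% (839 of 11527), or 6.77% (776 of 11460) when the 67 genes that meet every threshold are left out, as they are from the list genes. For list genes log2 values are edgeR fold changes ± standard error, n = 3 per group.

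Of 40 p53 targets, 7 met the thresholds (Trp53inp1, Phlda3, Polk and Btg2, with Mdm2, Plk2 and Cdkn1a set aside). Of the other 33, 21 rose and 9 fell without Thr, 12 rose and 8 fell without Cys, and 5 (15.2%) rose without Thr and fell without Cys. These were Ccng1 (cyclin G1), Ei24, Pidd1, Tnfrsf10b (a death receptor) and Gtse1. Ccng1 had normalized counts of 7352, 7470 and 7083 (unstarved), 17048, 17304 and 17921 (Thr-starved) and 6688, 6787 and 6440 (Cys-starved), with log2 of 1.25 ± 0.026 without Thr (adjusted p = 1.1e-20) and -0.10 ± 0.026 without Cys (adjusted p = 0.0062). Tnfrsf10b had log2 of 0.45 ± 0.04 without Thr (adjusted p = 1.2e-09) and -0.30 ± 0.041 without Cys (adjusted p = 3.4e-06), Pidd1 0.67 ± 0.042 without Thr (adjusted p = 2.5e-12) and -0.25 ± 0.044 without Cys (adjusted p = 0.0001), Ei24 0.71 ± 0.032 without Thr (adjusted p = 9.6e-15) and -0.13 ± 0.033 without Cys (adjusted p = 0.0044) and Gtse1 0.31 ± 0.024 without Thr (adjusted p = 7.7e-11) and -0.10 ± 0.024 without Cys (adjusted p = 0.0015). Among the p53 targets that rose without Cys were Gdf15, a stress-induced cytokine, with log2 of 2.23 ± 0.048 without Thr (adjusted p = 1.9e-20) and 0.92 ± 0.052 without Cys (adjusted p = 5.6e-12), and Sesn2, a leucine sensor, with 1.31 ± 0.023 without Thr (adjusted p = 3e-22) and 0.54 ± 0.022 without Cys (adjusted p = 2.6e-14). The median over the 33 was 0.31 without Thr and -0.01 without Cys, against -0.016 and 0.007 over all genes tested.

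**Figure D5:**
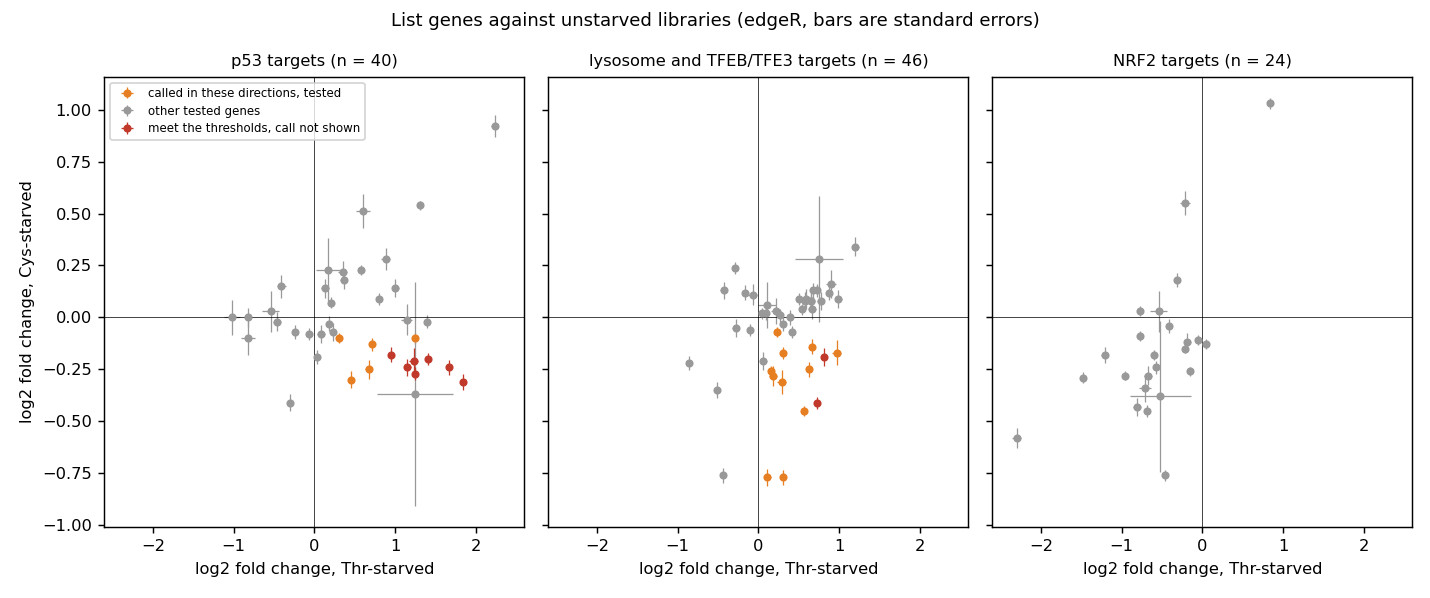
Points are genes of 3 lists, with edgeR log2 fold change against unstarved libraries for Thr starvation (x axis) and Cys starvation (y axis); bars are standard errors. Red genes meet the thresholds and are shown without a call, orange genes (5 p53 targets, 11 lysosomal genes, no NRF2 target) were called higher without Thr and lower without Cys, and grey genes were not.

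Of 46 lysosomal genes and TFEB or TFE3 targets, Lamp2 and Ctsl met the thresholds. Of the other 44, 32 rose and 8 fell without Thr, 8 rose and 15 fell without Cys, and 11 (25%) rose without Thr and fell without Cys. The share was 4.25% of all genes tested and 6.77% of genes with a mean of at least 200 outside the thresholds. The median log2 over the 44 was 0.31 without Thr and 0.02 without Cys, against -0.016 and 0.007 over all genes tested. As a list, they were thus not lower without Cys. Among the 11 were Mcoln1 (a lysosomal calcium channel), Atp6v1h and Atp6v1b2 (subunits of the proton pump), Rragc (a Rag GTPase that recruits mTORC1), Lamp1, Ctsd, Grn, Psap and Cd63. Lamp1 had normalized counts of 16747, 17276 and 17014 (unstarved), 25102, 24596 and 26037 (Thr-starved) and 12203, 12145 and 11939 (Cys-starved), and log2 of 0.57 ± 0.022 without Thr (adjusted p = 5.5e-16) and -0.45 ± 0.022 without Cys (adjusted p = 5.4e-13). The lysosomal genes differed in which arm was larger. Rragc had log2 of 0.63 ± 0.035 without Thr (adjusted p = 2.7e-13) and -0.25 ± 0.036 without Cys (adjusted p = 9.8e-06), and Grn (progranulin) 0.31 ± 0.033 without Thr (adjusted p = 2.9e-08) and -0.77 ± 0.034 without Cys (adjusted p = 9.1e-14). Atp6v1h had 0.66 ± 0.034 without Thr (adjusted p = 6.7e-14) and -0.14 ± 0.035 without Cys (adjusted p = 0.0023) and Ctsd 0.31 ± 0.029 without Thr (adjusted p = 4.2e-09) and -0.17 ± 0.03 without Cys (adjusted p = 7.2e-05). Mcoln1 had 0.97 ± 0.058 without Thr (adjusted p = 1.1e-12) and -0.17 ± 0.061 without Cys (adjusted p = 0.039), and its Cys call was lost without unstarved replicate 1 (log2 -0.11) or 3 (-0.16) and without Cys-starved replicate 2 (-0.17) or 3 (-0.12). The Cys call of Atp6v1b2 was lost without unstarved replicate 2 or Cys-starved replicate 3 (-0.06 in both), and the Thr call of Cd63 without unstarved replicate 2 or Thr-starved replicate 3 (0.10 in both).

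Immediate early, growth factor and pluripotency genes were read the same way. Of 48 tested immediate early genes, 27 rose and 15 fell without Thr, 17 rose and 11 fell without Cys, and 3 (6.25%) rose without Thr and fell without Cys. This lies between the 4.25% of all genes and the 6.77% of genes with a mean of at least 200 outside the thresholds. Of 22 LIF and STAT3 genes, 15 rose and 4 fell without Thr, 5 rose and 8 fell without Cys, and 4 (18.2%) were called in opposite directions. Of 22 FGF and ERK feedback genes, 6 rose and 10 fell without Thr, 1 rose and 10 fell without Cys, and 3 (13.6%) went in opposite directions. For 20 BMP, Nodal and TGF-beta genes these counts were 7 and 10 without Thr, 4 and 9 without Cys and 2 (10%) in opposite directions. For 22 naive pluripotency genes they were 12 and 10, 6 and 13, and 4 (18.2%), and for 26 Notch genes 8 and 15, 7 and 3, and 1 (3.85%). The antiapoptotic gene Mcl1, which is in 2 of the lists, had log2 of 0.80 ± 0.023 without Thr (adjusted p = 2.5e-18) and -0.12 ± 0.023 without Cys (adjusted p = 0.0002), and Pim3, a kinase that STAT3 induces, 0.79 ± 0.026 without Thr (adjusted p = 3.8e-17) and -0.09 ± 0.027 without Cys (adjusted p = 0.0099). The mRNA decay factor Zfp36l1 had 0.75 ± 0.026 without Thr (adjusted p = 7.6e-17) and -0.12 ± 0.026 without Cys (adjusted p = 0.00079). The ERK phosphatase Dusp4, just outside the Cys threshold, had 0.83 ± 0.045 without Thr (adjusted p = 1.8e-13) and -0.15 ± 0.046 without Cys (adjusted p = 0.016), the ERK inhibitors Spry2 0.36 ± 0.027 without Thr (adjusted p = 1e-10) and -0.30 ± 0.028 without Cys (adjusted p = 1.4e-08) and Spred1 0.19 ± 0.028 without Thr (adjusted p = 2.4e-06) and -0.18 ± 0.028 without Cys (adjusted p = 1.6e-05). Sox2, a core pluripotency factor, had 0.44 ± 0.02 without Thr (adjusted p = 6.1e-15) and -0.20 ± 0.02 without Cys (adjusted p = 4.4e-08), Tfcp2l1 0.17 ± 0.023 without Thr (adjusted p = 1.6e-06) and -0.27 ± 0.023 without Cys (adjusted p = 5.9e-09), Sall4 0.37 ± 0.034 without Thr (adjusted p = 2.2e-09) and -0.16 ± 0.034 without Cys (adjusted p = 0.00058) and Dppa3 0.23 ± 0.04 without Thr (adjusted p = 3.6e-05) and -0.39 ± 0.041 without Cys (adjusted p = 1.2e-07). The ligand genes Gdf3 and Nodal had 0.38 ± 0.024 without Thr (adjusted p = 3.5e-12) and -0.24 ± 0.024 without Cys (adjusted p = 5.7e-08) and 0.35 ± 0.04 without Thr (adjusted p = 8.9e-08) and -0.30 ± 0.041 without Cys (adjusted p = 3.6e-06), and the Notch effector Hes1 0.40 ± 0.047 without Thr (adjusted p = 1e-07) and -0.13 ± 0.047 without Cys (adjusted p = 0.032). The Cys calls of Dusp4 (without unstarved replicate 2, log2 -0.11, or Cys-starved replicate 2, -0.12, or 3, -0.13), Hes1 (without unstarved replicate 3, -0.08, or Cys-starved replicate 1 or 3, both -0.12) and Pim3 (without Cys-starved replicate 3, -0.07) were lost with 1 library fewer.

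None of 24 tested NRF2 targets, the genes of glutathione synthesis and thiol defence, rose without Thr and fell without Cys by edgeR. The count was 0 at an unadjusted p under 0.05 and 1 by DESeq2. Of all genes tested, 4.25% were called in these opposite directions, and of well expressed genes outside the thresholds 6.77%. With shares this small, 24 genes are too few to tell a count of 0 from the share of all genes. Without Thr 1 rose and 20 fell, and without Cys 3 rose and 17 fell. The 20 were 83.3% of the list, against 31.9% of all genes called lower without Thr. The 17 were 70.8%, against 18.8% of all genes called lower without Cys. The median log2 was -0.55 without Thr and -0.18 without Cys, against -0.016 and 0.007 over all genes tested. Because both comparisons use the 3 unstarved libraries, how often a gene fell in both is not read here.

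The cell type was checked on marker genes. All 11 ES cell markers were high, with summed normalized counts of 210729 to 212521 in unstarved, 207258 to 212599 in Thr-starved and 188597 to 192226 in Cys-starved libraries. These sums cover markers that differ in opposite directions, with 12700 to 13300 unstarved and 3990 to 4130 Thr-starved normalized counts for Utf1, and 16400 to 16800 and 24300 to 25500 for Lin28a. The 5 fibroblast markers with a row, of 8, summed to 642 to 655, 430 to 483 and 564 to 694 in the same order, 4 endoderm markers to 135 to 145, 197 to 231 and 178 to 210, 3 mesoderm markers to 251 to 319, 112 to 120 and 220 to 247, and 2 of 3 neural markers to 658 to 700, 942 to 1097 and 869 to 897. No marker with a row had a group mean of 0. The part of these differences in the 62 genes was not tested.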

How the data were processed

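Poly(A) RNA of 9 libraries of E14 cells was analysed, 3 for each of the unstarved, Thr-starved and Cys-starved groups taken from the sample titles. Per the labels, the authors prepared directional libraries, mapped reads to GRCm38 with STAR 2.7.4a and made the deposited counts per gene with HTSeq; the strand and overlap settings are not given in the sources used here. The authors also deposited a signal table, these counts divided by a size factor per library from DESeq2. Each of its columns is the count column divided by 1 number. No other column of per-sample values was left unused, and no row lacked a gene identifier. Gene symbols were found for 20161 of 20189 identifiers.

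The 62 genes were chosen by the thresholds on the signal table given at the start of the report. The genes and the lists were chosen with earlier results of these data known. Counts were tested in R 4.3.3 with edgeR 4.0.16 (TMM, quasi-likelihood F test, group as the only term, all 9 libraries, genes with at least 1 count, Benjamini-Hochberg adjusted p of 0.05 or less), and no p-value is printed for a gene that meets the thresholds, although these genes are in the fit and in the shares over all genes. On simulated counts of 20141 genes for Thr-starved against unstarved libraries, 97 of 100 genes changed by 0.5 on the log2 scale and 100 of 100 changed by 1 were called, with 7 false calls. The simulation gave every gene the same dispersion and changed 200 genes, whereas 12689 were called without Thr in the data. Differences under 0.5, such as -0.10 for Ccng1 without Cys, were not simulated. Alternatives were DESeq2 1.42.0, the deposited size factors, filterByExpr, a replicate block, other thresholds, and each library left out.

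Of the 62 genes, 61 are named, and 1 gene of the 62 and 2 genes of the lists are not reported here. Values of all libraries are given, among those named, for the 12 with the largest Thr-starved to Cys-starved ratio, the 5 with the highest mean, the 5 with the lowest Cys log2 and those in a list. Other list genes called in opposite directions are given with edgeR values, up to 6 per list by Thr fold change; Gdf15 and Sesn2 were named after their values were seen. Coordinates, lengths and exons came from GENCODE M21 on GRCm38, promoter windows from RefSeq (GRCm38.p6), and similar transcripts from BLAST 2.17.0 (95% identity or more over at least 86 bases). Precision is limited by 3 libraries per group. Libraries without Arg or Leu were not analysed here.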

Additional observations from a re-analysis of the deposited data

How the results depend on the processing

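The number of genes chosen moved with the scaling and the thresholds. In place of 62 genes, 38 met the thresholds on TMM-scaled CPM, 107 with a Thr log2 of at least 0.5, 17 with at least 1, and 25 with a Cys log2 of -0.3 or less. It was 93 with a Cys log2 of -0.1 or less, 67 with a mean of at least 100, 53 with at least 500 and 67 with overlap allowed. Leaving out each library in turn gave 59 to 66 genes, of which 52 to 61 were among the 62.

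The labels give the same replicate numbers in each group. Deviations from the group mean of same-numbered libraries correlated at -0.23 to 0.10 across genes (9 pairs), against -0.15 to 0.19 for other pairs. Same-numbered libraries were thus no more alike than others by this measure. With 3 libraries per group it cannot tell whether they were handled together. With the replicate block, all 3 same-numbered ratios in the direction of the rule held for 65 genes, and 29 list genes were called higher without Thr and lower without Cys, the same 29 as without it.

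Of the called genes, leaving out 1 library gave 12096 to 12689 without Thr (12689 with all), 6520 to 7475 without Cys (7313 with all), 747 to 852 in opposite directions (856 with all) and 24 to 31 of the list genes. Deposited size factors, DESeq2 and filterByExpr called 33, 31 and 30 list genes, all 29 among them. The share of windows of the 62 genes with a STAT-type palindrome or an E-box was 6.35% and 7.94% in the 150 bases nearest the start, against 3.1% and 6.83% of windows of other expressed genes. Allowing 2 mismatches, an alternative added after seeing the data, no window of the 62 held a pair of p53 sites, and 0.375% of other windows did.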
